A study of Mus musculus with 6 samples.

Results

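Neurotrophins and their receptors are followed here in the mouse Schwann cell line Msc80 through 8 genes: the ligand genes Bdnf, Ntf3 and Ntf5, the Trk receptor genes Ntrk2 and Ntrk3, the receptor gene Ngfr (p75), the co-receptor gene Sort1 (sortilin) and Maged1, whose product binds p75. They were chosen by name, with earlier results of these data known. All 8 were found among the 54109 genes listed in the deposited tables by matching Ensembl gene IDs to symbols. Schwann cells are the glia that ensheathe and support axons in peripheral nerves. The study profiled messenger RNA in 6 cultures grown in serum-containing medium: 3 control cultures labelled Sox10 wt and 3 cultures labelled Sox10ko, in which CRISPR/Cas9 editing was used to inactivate Sox10, the gene of a transcription factor of neural crest and glia. Cultures within a group are labelled as biological replicates, and every Sox10ko culture as a cell clone, but whether 1 clone or several were used is not said. A difference between clones and an effect of Sox10 loss cannot be told apart in this design. The libraries held between 32328618 and 41834431 counted reads.

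Neurotrophins are secreted growth factors that are made as precursors and cleaved to their mature form. The mature ligands bind Trk receptor tyrosine kinases with some preference, BDNF and NT-4 (the products of Bdnf and Ntf5) for TrkB (Ntrk2), and NT-3 (Ntf3) for TrkC (Ntrk3). All of them also bind p75, a receptor of the tumour necrosis factor receptor family without kinase activity. Uncleaved precursors bind p75 together with sortilin or its relative SorCS2. In peripheral nerves p75 is a well-known marker of immature and injured Schwann cells, which also secrete neurotrophins.

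CPM stands for read counts scaled by library size and TMM factors, and values of single libraries always follow the order of replicates 1, 2 and 3. Folds compare Sox10ko with control. Sox10 itself checks the labels: 606, 627 and 617 CPM were measured in control, and 82.3, 67.5 and 116 CPM in Sox10ko. The lower values were all in the libraries labelled Sox10ko, which still held 13.3%, 10.9% and 18.9% of the control mean.

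The sharpest difference in this family was the loss of Ngfr, which was among the most abundant transcripts of the control cells and nearly vanished in Sox10ko. Ntrk3, present at a low level, fell as well. Bdnf and Sort1 went the other way: Bdnf rose 3.85-fold and Sort1 1.94-fold. Maged1 did not pass the test, and Ntrk2 and Ntf3 had almost no reads in any library. The low-count filter left 5 of the 8 genes for testing, and of these 2 were higher, 2 lower and 1 not past the threshold (quasi-likelihood test of edgeR, p adjusted by Benjamini and Hochberg, threshold 0.05). Among all 15427 genes tested, 32.0% were called, 17.3% higher and 14.7% lower. Ngfr, Ntrk3 and Bdnf were called with a change of at least 2-fold, as were 17.1% of all genes tested. In 4 of the 5 tested genes the control and Sox10ko values did not overlap, against 49.3% of all genes tested. As the 8 genes were chosen with earlier results known, their shares are a description only.

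**Figure D1:**
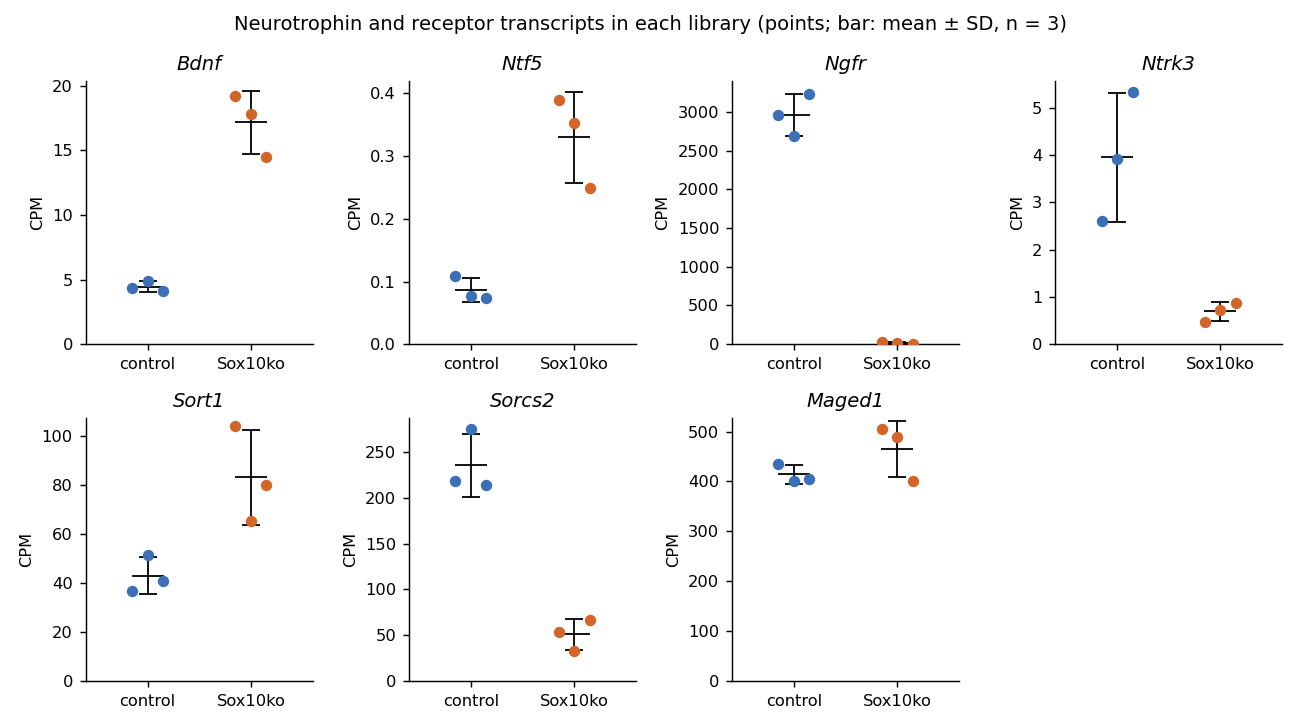
CPM of 6 of the 8 genes, with Sorcs2 of the surrounding pathway, in each library (points; the bar is the mean ± SD of 3 libraries, every axis starts at 0). Ngfr lies at 2693 CPM or more in every control library and at 31.2 CPM or less in every Sox10ko library, while the Bdnf, Ntf5 and Sort1 points of Sox10ko all lie above those of control.

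Ngfr (ENSMUSG00000000120) is a minus strand gene of chromosome 11 (GRCm38, start 95568818, end 95587735), and GENCODE lists 1 transcript of 6 exons for it. Its control libraries held 2965, 2693 and 3237 CPM, and its Sox10ko libraries 31.2, 13.0 and 5.03 CPM. No Sox10ko library came near the controls, but the Sox10ko libraries differed from each other more, in proportion, than the controls did. The fall was 181-fold (log2 fold change -7.50 ± 0.71 SE, edgeR adjusted p = 0.00044), and 329-fold without Sox10ko replicate 1, the library with the highest residual level. Without Sox10ko replicate 3, the library with the lowest, it was 135-fold. Of the genes tested, 33 including Ngfr had a log2 fold change at least as low. In control, Ngfr took 0.291% of all counted reads and ranked 11 by level per length among 21893 protein-coding genes. In Sox10ko it ranked 7438.

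The Sox10ko libraries did not line up by their remaining Sox10. Replicate 3 kept the most Sox10, 18.9% of the control mean, and the least Ngfr, 0.170%. Replicate 1 kept 13.3% of Sox10 and 1.05% of Ngfr, and replicate 2 kept 10.9% and 0.439%. Ntrk3 had its highest Sox10ko value in replicate 3, at 22.1% of the control mean, and its lowest in replicate 1, at 12.1%. With 3 libraries these orders are a description only.

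**Figure D2:**
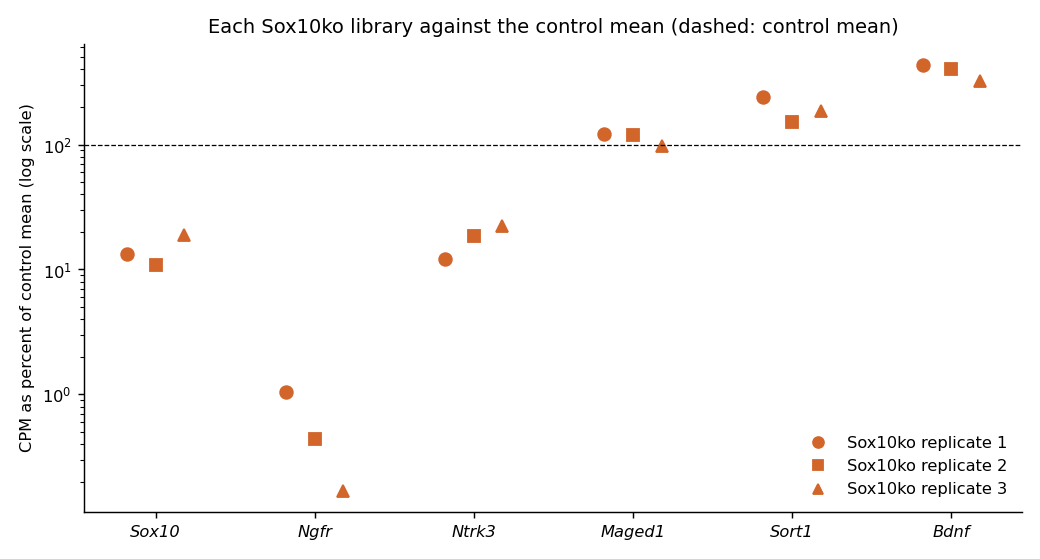
CPM in each Sox10ko library as a percentage of the control mean, on a log axis (symbols are the 3 Sox10ko replicates, the dashed line is the control mean). Sox10 lies between 10.9% and 18.9%, Ngfr between 0.170% and 1.05%, and Bdnf between 325% and 431%.

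Because Ngfr had the largest fold change of the 5 tested genes among the 8, the 250 bases before its RefSeq start site are shown (GRCm38.p6, chr11:95587699-95587948, minus strand, written 5′ to 3′ along the gene). Capitals mark the GC box GGGCGG on either strand, a letter string bound by Sp1-type factors, which was added to the search after the values were seen.
Ngfr: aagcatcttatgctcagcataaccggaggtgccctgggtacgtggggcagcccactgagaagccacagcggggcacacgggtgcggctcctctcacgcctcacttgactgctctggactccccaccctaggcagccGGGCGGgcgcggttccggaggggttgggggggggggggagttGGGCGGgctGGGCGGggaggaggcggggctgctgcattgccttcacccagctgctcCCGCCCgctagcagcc
The window holds 4 such matches, 114, 72, 63 and 16 bases before the RefSeq start site, and no TATAAA on either strand. In GENCODE this minus strand gene begins at 95587735, inside the window, so the match at 16 bases lies within the gene there. The GC content of the window was 70.4%, against a median of 52.4% over 32851 mouse promoters of the same length. GGGCGG on either strand was present in 32.7% of these promoters and TATAAA in 12.4%. The SOX core letters ACAAAG and ACAAT, searched on both strands, do not occur in the Ngfr window. Either was found in 38.8% of all promoters, ACAAAG in 16.5% and ACAAT in 27.7%. The windows are short, and the absence of these letters says nothing about more distant sequence.

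Among the ligands, Bdnf (ENSMUSG00000048482, plus strand of chromosome 2 from 109674700 to 109727007, 11 annotated transcripts of 2 to 3 exons) was the gene that rose. Control libraries gave 4.37, 4.89 and 4.10 CPM, and Sox10ko libraries 19.2, 17.8 and 14.5 CPM. The groups were well apart, and each group was even within itself. The rise was 3.85-fold (log2 fold change 1.95 ± 0.17 SE, edgeR adjusted p = 0.000335) and stayed between 3.61-fold and 4.13-fold under all 13 alternatives of processing. Bdnf uses several alternative first exons, each with its own promoter. Counts per gene do not show which of them the added reads came from. An antisense gene, Gm45346, covers 14.4% of the exonic bases of Bdnf on the opposite strand, and it held at most 5 reads in any library.

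The promoter table lists 7 start sites for Bdnf, and 3 of the 7 windows of 250 bases hold SOX core letters. The window with ACAAAG and the window with a pair of ACAAT matches are shown, since Bdnf moved opposite to Ngfr, with the matches on either strand in capitals (GRCm38.p6, plus strand, chr2:109692186-109692435 and chr2:109709133-109709382).
Bdnf_ACAAAG: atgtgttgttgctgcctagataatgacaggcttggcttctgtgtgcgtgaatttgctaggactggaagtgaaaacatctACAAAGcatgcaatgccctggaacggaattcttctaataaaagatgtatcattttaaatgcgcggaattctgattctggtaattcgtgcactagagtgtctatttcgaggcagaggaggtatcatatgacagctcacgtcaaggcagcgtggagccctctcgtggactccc
Bdnf_ACAAT: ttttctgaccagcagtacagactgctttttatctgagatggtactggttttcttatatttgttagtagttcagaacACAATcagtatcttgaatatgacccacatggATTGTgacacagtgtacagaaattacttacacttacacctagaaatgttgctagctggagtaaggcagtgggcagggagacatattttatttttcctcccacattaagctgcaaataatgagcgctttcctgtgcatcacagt
In the first, ACAAAG begins 171 bases before the start site. In the second, ACAAT begins 174 bases before it, and the reverse strand match lies at 143 bases. Over the 5 of the 8 genes with a listed promoter, 5 of 12 windows held either string, near the 38.8% of all promoters. Maged1, which did not pass the test, holds both. A match of letters is no evidence of binding.

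Ntf5, the gene of NT-4, had 4, 3 and 3 reads in control and 13, 15 and 10 reads in Sox10ko. The groups did not overlap, but the gene did not pass the low-count filter and was not tested with all libraries. The ratio of pooled reads was 3.83, with an exact 95% counting interval of 1.87 to 8.61 that covers counting error only. With no low-count filter it was called (edgeR adjusted p = 0.0405). Over the 6 alternatives in which it could be fitted, the adjusted p ran from 0.0200 to 0.0731 and 4 passed. When 1 library is left out it enters only through the Sox10ko libraries, so its direction is then set by the filter. Ntf3, the gene of NT-3, had 1 read in control replicate 1 and 0 in the other 5 libraries.

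Of the Trk receptor genes Ntrk2 and Ntrk3, only Ntrk3, the gene of the NT-3 receptor TrkC, had more than 0 reads in these 6 libraries. Its minus strand locus runs on chromosome 7 from 78175959 to 78738012. Its level was 2.60, 3.92 and 5.32 CPM in control and 0.479, 0.728 and 0.872 CPM in Sox10ko, from 16, 31 and 35 reads. The groups did not overlap, although the control libraries were the more spread of the groups. The fall was 5.65-fold (log2 fold change -2.50 ± 0.36 SE, edgeR adjusted p = 0.00248). The annotation gives Ntrk3 20 transcripts. TrkC is known to occur also in forms without the kinase domain, and counts per gene do not tell such forms apart. Ntrk2, the gene of the BDNF receptor, had 0 reads in all 6 libraries. A count of 0 allows a level of up to 3 reads, which is worth between 0.0704 and 0.0899 CPM, depending on the library.

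Sort1 encodes sortilin, a sorting receptor that carries neurotrophin precursors and joins p75 at the cell surface. It lies on the plus strand of chromosome 3 from 108284082 to 108361511. Its control values were 36.6, 51.3 and 40.8 CPM, and its Sox10ko values 104, 65.5 and 80.0 CPM. The lowest Sox10ko library was still above the highest control library, with a narrow gap. The rise was 1.94-fold (log2 fold change 0.95 ± 0.20 SE, edgeR adjusted p = 0.0102). Leaving out control replicate 3 ended the call (edgeR adjusted p = 0.0564). Over all 13 alternatives the adjusted p ran from 0.000106 to 0.0564. An antisense gene, Gm12523, covers 4.47% of the exonic bases of Sort1 and held at most 1 read in any library.

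Among the relatives of sortilin, Sorcs2, the gene of another p75 co-receptor for neurotrophin precursors, had control values of 218, 276 and 214 CPM and Sox10ko values of 53.0, 33.2 and 66.7 CPM. It fell 4.63-fold with no overlap of the groups (log2 fold change -2.21 ± 0.26 SE, edgeR adjusted p = 0.000962). Sorl1, a sorting receptor of endosomes, stood at 0.181 ± 0.0543 CPM in control and 0.815 ± 0.349 CPM in Sox10ko. No control library carried it over the low-count filter, which fixed the direction of any call. Of the other relatives, which were not tested, Sorcs1 had 100 reads in Sox10ko replicate 2, 0 in the other Sox10ko libraries and 3 in control, and Sorcs3 had 1 read in each group.

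The balance between sortilin and p75 was compared per length within each library, where the scaling of libraries plays no part. Reads per kilobase of exon were 178, 115 and 174 times as many for Ngfr as for Sort1 in control. In Sox10ko replicates 1, 2 and 3 Sort1 exceeded Ngfr 1.52, 2.29 and 7.24 times. The order was thus reversed in all 3 Sox10ko libraries. An exact permutation test of the log2 ratios, two-sided, gave p = 0.1, the smallest that 3 against 3 libraries allow. Ngfr and Sort1 each separated the groups, in opposite directions, so this outcome was fixed in advance and adds no support. Over the summed level per length of p75, the Trk genes and the sortilin family, Ngfr made up 96.3% ± 0.848 (SD, n = 3) in control and 20.5% ± 12.1 in Sox10ko. Sort1 made up 0.642% ± 0.160 in control and 51.1% ± 3.14 in Sox10ko, and Sorcs2 3.04% ± 0.692 and 27.3% ± 9.65. The summed level itself fell from 893 ± 74.7 to 21.7 ± 6.39 RPKM (CPM per kilobase of exon).

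Maged1 encodes an adaptor, also called NRAGE, that binds the intracellular part of p75. Its minus strand locus runs on chromosome X from 94535474 to 94542143. Its level was 435, 402 and 405 CPM in control and 505, 490 and 401 CPM in Sox10ko. Sox10ko replicate 3 lay just below the lowest control library, so the groups overlapped. The difference did not pass the test (log2 fold change 0.17 ± 0.12 SE, edgeR adjusted p = 0.303, and adjusted p = 0.0959 to 0.573 over 13 alternatives). Maged1 was the most abundant of the 8 genes in Sox10ko and the second most abundant, after Ngfr, in control.

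Ordered by level per length in control, the genes ran from Ngfr (860 ± 78.9 RPKM) through Maged1 (95.1 ± 4.29), Sorcs2 (26.8 ± 3.92), Sort1 (5.67 ± 0.999), Bdnf (0.716 ± 0.0648) and Ntrk3 (0.131 ± 0.0451) to Ntf5 (0.0325 ± 0.00730), each with n = 3. No neighbours in this order overlapped. In Sox10ko the order was Maged1 (107 ± 12.9 RPKM), Sort1 (11.0 ± 2.57), Sorcs2 (5.79 ± 1.92), Ngfr (4.76 ± 3.89), Bdnf (2.76 ± 0.390), Ntf5 (0.124 ± 0.0274) and Ntrk3 (0.0230 ± 0.00659). There Ngfr overlapped with both Sort1 and Sorcs2 above it and Bdnf below it. These values rest on the merged exons of all annotated transcripts, which makes the level of Ntrk3, with 30170 exonic bases, a low estimate.

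**Figure D3:**
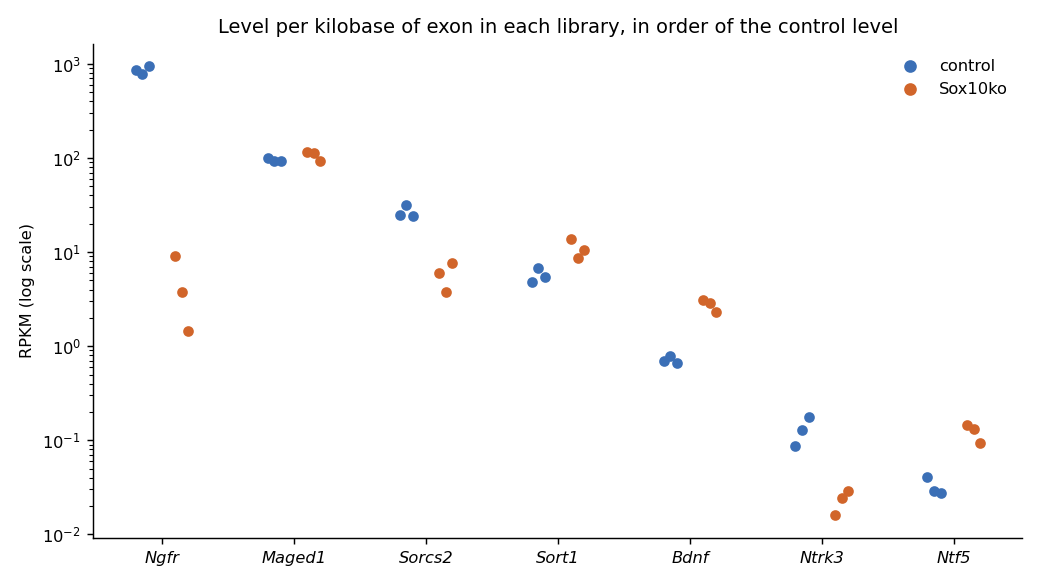
Level per kilobase of exon (RPKM, log axis) in each library for 6 of the 8 genes and Sorcs2, ordered by their control level. Ngfr drops from 860 RPKM to the range of Sort1, Sorcs2 and Bdnf, while Maged1 stands at 95.1 and 107 RPKM. Ntrk2 and Ntf3 are not drawn because they have 0 reads in all Sox10ko libraries.

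The other genes of the pathway were taken from 7 lists, of which 49 genes are not among the 8. Of these, 42 were tested: 9 were higher, 8 lower and 25 did not pass. Sorl1 and Pcsk6 are among the 9, and both entered the test only through their Sox10ko libraries. The share called, 40.5%, compares with 32.0% of all genes, and their median log2 fold change was 0.01, against 0.02 over all genes tested. The calls depended on single libraries, and without control replicate 3 there were 3 higher and 4 lower. The number higher was also 5 without control replicate 1, without Sox10ko replicate 1 and without Sox10ko replicate 2.

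Of 13 genes listed as p75 partners and adaptors, Maged1 included and all tested, 1 was higher and 4 lower, with a median of -0.01 for the log2 fold change. Of all genes tested, 32.0% were called. Lingo1, which forms a complex with p75 and the Nogo receptor in myelin inhibition of axon growth, fell from 35.9 ± 6.36 to 13.7 ± 5.69 CPM (edgeR adjusted p = 0.0135, or 0.0559 with control replicate 3 left out). Rtn4r, the Nogo receptor itself, fell from 6.88 ± 2.15 to 1.89 ± 1.10 CPM (edgeR adjusted p = 0.016, or 0.0635 with control replicate 3 left out), which was 3.63-fold, and 5.51-fold without Sox10ko replicate 3. Tnfrsf19, a relative of p75 that can stand in for it in that complex, fell from 5.26 ± 1.74 to 0.331 ± 0.254 CPM (16.2-fold, edgeR adjusted p = 0.00258). Without Sox10ko replicate 1 its fall was 26.7-fold, and without Sox10ko replicate 2 it was 11.8-fold. The other gene that fell was Ripk2, a kinase that acts inside the cell (log2 fold change -0.82 ± 0.19 SE, edgeR adjusted p = 0.0172), and the one that rose was Bex3, a small protein that binds the intracellular part of p75 (0.54 ± 0.14 SE, edgeR adjusted p = 0.0264). Nradd, a transmembrane relative of p75, did not pass (0.42 ± 0.17 SE, edgeR adjusted p = 0.0977). Ripk2, Bex3 and Nradd were chosen after their values were seen.

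Among all genes tested, 17.3% were called higher and 14.7% lower, the shares to set beside the 2 lists that follow. Sheddases and gamma-secretase subunits, which cut p75 in the membrane, changed by less than 2-fold: of 7 tested, 2 were higher and 1 lower. The gene that fell was Adam10, from 1186 ± 111 to 717 ± 68.8 CPM (edgeR adjusted p = 0.00398), and it was chosen after its values were seen. Of 15 Trk adaptor genes, 14 were tested, 3 were higher and 0 lower (median 0.26). Among the 3, Shc2, an adaptor of receptor tyrosine kinases found mainly in neural cells, rose 13.6-fold, from 0.338 ± 0.201 to 4.65 ± 2.94 CPM (edgeR adjusted p = 0.00465), while without Sox10ko replicate 3 the rise was 8.75-fold. The other two, Frs2 and Grb2, rose less than 2-fold.

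Of 9 genes of enzymes that process neurotrophin precursors, 6 were tested, with 2 higher and 2 lower (median -0.25). The shares over all genes tested were 17.3% higher and 14.7% lower. Plat, the gene of tissue plasminogen activator, which turns plasminogen into the plasmin that cleaves proBDNF, fell from 113 ± 11.9 to 17.5 ± 7.86 CPM (6.45-fold, edgeR adjusted p = 0.00128). Plg, the gene of plasminogen, had 10 reads in control and 4 in Sox10ko. Furin, the intracellular convertase, fell by less than 2-fold, from 273 ± 32.2 to 206 ± 5.55 CPM (edgeR adjusted p = 0.0278). Mmp3, a matrix protease, rose 5.70-fold, from 1.22 ± 0.738 to 6.99 ± 1.60 CPM (edgeR adjusted p = 0.00475). Its rise was 8.64-fold without control replicate 2 and 4.75-fold without control replicate 3. Pcsk6, another convertase, had 3 control reads and 56 Sox10ko reads. Their ratio was 18.8 (exact 95% counting interval 6.11 to 93.9), and the gene passed the filter only through its Sox10ko libraries. All 3 control reads came from replicate 3, and without that library it was at least 12.2-fold higher, with 3 counts taken as the floor over both remaining control libraries.

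**Figure D4:**
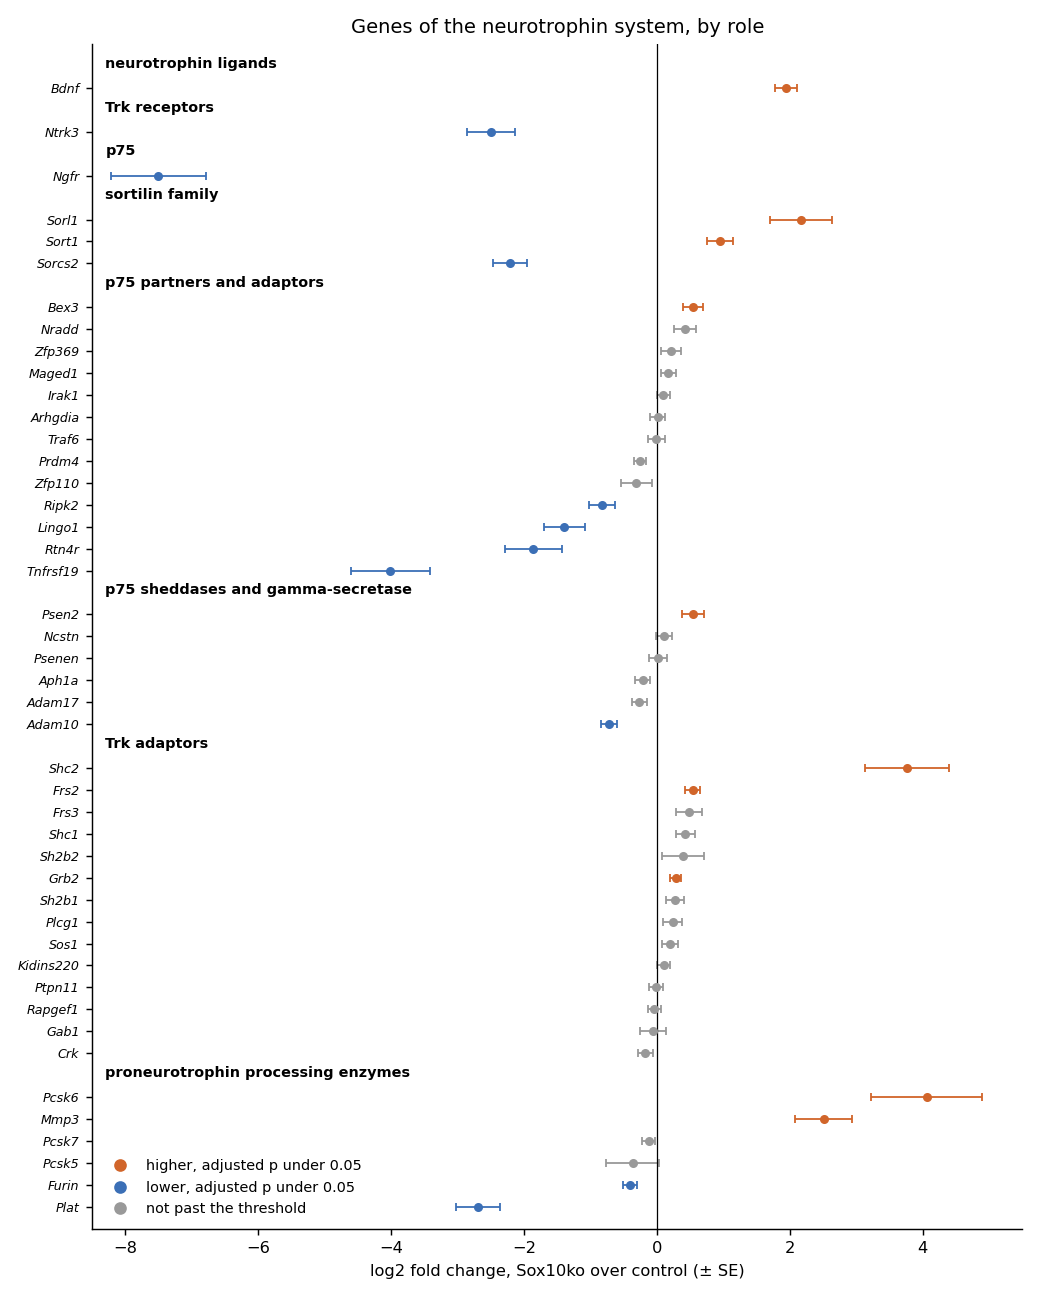
Log2 fold change of Sox10ko over control with its SE for tested genes of the 7 lists and Ngfr, grouped by role and coloured by the edgeR call. Ngfr at -7.50 lies farthest to the left. The point of Pcsk6 rests on 3 control reads and its size depends on the prior count of the fit.

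Some markers of cell types also differed between the groups in the same libraries, where 32.0% of all genes tested were called. Of 10 Schwann cell markers, 8 were lower and 0 higher, and their summed level ran from 2220 to 2415 CPM in control and from 432 to 654 CPM in Sox10ko. Sox10, the edited gene itself, is among the 8 and in these sums, with a mean of 617 CPM in control and 88.7 CPM in Sox10ko. The 5 smooth muscle markers summed to at most 1.03 CPM in control and to between 118 and 670 CPM in Sox10ko, where Acta2 alone made up 94.4% of the mean sum. Of 7 fibroblast markers, 4 were tested and 2 were higher (285 to 335 CPM in control, 657 to 1910 CPM in Sox10ko). Col1a1 alone held 1086 CPM of the mean sum of 1301 CPM in Sox10ko, and Dcn, Lum and Thy1 had between 3 and 21 reads per group. Of 8 neuronal markers, 5 were tested and 1, Tubb3, was lower (sums of 89.4 to 101 CPM and 55.5 to 72.8 CPM), with Rbfox3 at 0. Tubb3 made up most of these sums, with 87.9 of a mean of 96.3 CPM in control and 50.2 of 66.1 CPM in Sox10ko. The other tested neuronal markers had positive log2 fold changes and did not pass, and the median over the list was 0.56. Leukocyte markers summed to 5.46 to 7.24 CPM in control and 9.51 to 13.2 CPM in Sox10ko, with Itgam and Cd3e at 0. Of the 2 tested, Cd68 was higher (means of 2.37 and 8.22 CPM), and Csf1r did not pass (4.16 and 3.07 CPM). Endothelial markers summed to at most 2.30 and 0.728 CPM, and epithelial markers to at most 0.271 and 5.13 CPM. The low-count filter bears on these calls: in Gfap of the Schwann cell list, Acta2, Cnn1, Myh11, Cdh5, Krt8 and Krt14 at most 1 library of the lower group reached it, so their direction was set by the filter. Fewer cells of a type and less RNA per cell cannot be told apart in bulk RNA, and the part of these shifts in the results on Ngfr, Ntrk3, Bdnf and Sort1 was not tested.

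The genes with the pattern most like that of Ngfr over the 6 libraries were sought by Pearson's r of log2 CPM among 10236 tested genes whose mean reached 5 CPM. They were Syt11 of the synaptotagmin family, Nat8l, the enzyme that makes N-acetylaspartate, Armc8, Msl2 and Fign, a microtubule-severing enzyme, with r from 0.997 to 0.999. Likeness of pattern is not likeness of size: Nat8l fell from 39.3 ± 6.74 to 1.02 ± 0.731 CPM, while Armc8 was at 69.9 ± 0.196 and 59.6 ± 1.84 CPM and did not pass the test (edgeR adjusted p = 0.0658). Those most like Bdnf were Pcolce, an enhancer of procollagen processing, Tprn, Dnah7b, an axonemal dynein gene, Slc24a3, a sodium-calcium exchanger, and Slc6a12, a betaine transporter, also with r from 0.997 to 0.999. Pcolce rose from 6.46 ± 2.92 to 446 ± 184 CPM. With 6 libraries in 2 groups such values mostly follow the group difference, and 48 genes exceeded an r of 0.99 with Ngfr and 84 with Bdnf.

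**Figure D5:**
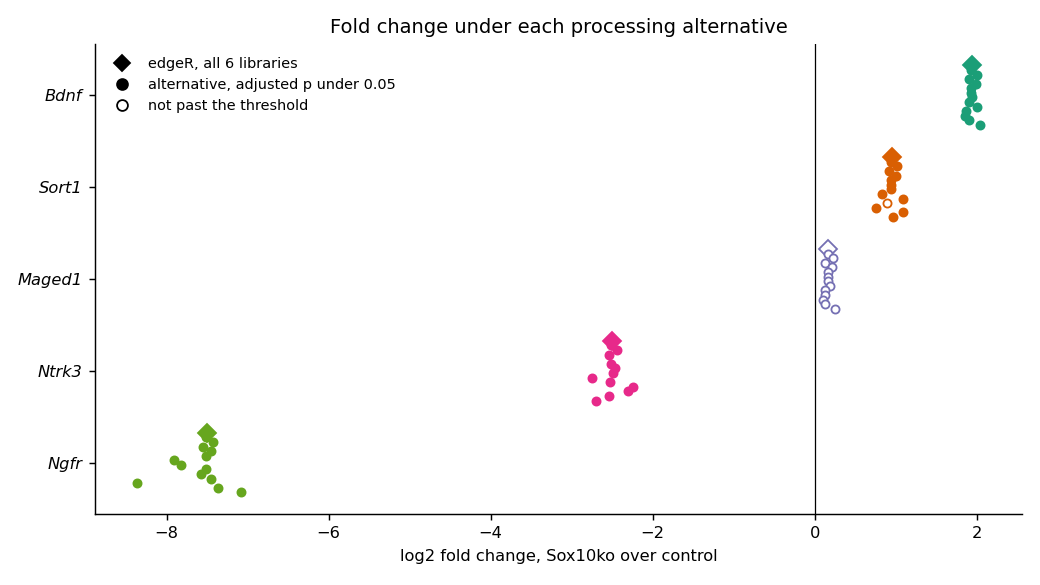
Log2 fold change of the 5 tested genes with all libraries (diamonds) and under the alternatives of processing (circles; open symbols do not pass the threshold). Ngfr, Ntrk3 and Bdnf are filled in every setting that could test them, Sort1 is open in 1, and Maged1 is open throughout.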

How the data were processed

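The 8 genes and the gene lists were chosen with earlier results of these data known. Counts per Ensembl gene were deposited by the authors as whole numbers, 1 table per library. The submitters' processing notes name the tools STAR 2.6.0c, HTSeq and DESeq2 and the build mm10 (GRCm38). What each tool did, the annotation release and the strand setting were not given in the sources used here. Per the labels' protocols the libraries came from a stranded mRNA kit. Symbols matched 54042 of 54109 IDs, and coordinates and exon lengths came from GENCODE M21 on GRCm38. Promoters came from RefSeq on GRCm38.p6, where 5 of the 8 genes had an entry.

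The low-count filter was filterByExpr (edgeR 4.0.16, R 4.3.3), which at these depths asks for 0.249 CPM, before TMM scaling, in 3 libraries. All 6 libraries entered a quasi-likelihood F test after TMM scaling, two-sided, with Benjamini-Hochberg adjustment over 15427 genes and a threshold of 0.05. The SE of a log2 fold change was derived from the test, as its absolute value over the square root of F. RPKM is CPM per kilobase of merged exons. Replicates of a group differed by more than sampling noise, with a chi-square per degree of freedom of at least 24.7, and as the labels do not say how cultures were separated, p-values measure the spread between these libraries. Alternatives were DESeq2 size factors, library size alone, the Wald test of DESeq2 1.42.0, no low-count filter, a minimum mean of 5 CPM, limma-voom (limma 3.58.1), a replicate block and leaving out each library. In a simulation of the Sox10ko comparison with 15130 genes, 200 genes were changed. Recovery was 10% of the genes changed 1.5-fold, 56% of those changed 2-fold and 92% of those changed 4-fold. Far more genes, 4939, were called in the data, so these rates need not hold there. Named beyond the 8 were Sox10, pathway genes past the threshold with at least a 2-fold change and the 5 genes most like Ngfr and Bdnf. Adam10, Bex3, Frs2, Furin, Grb2, Nradd, Plg, Ripk2, Sorcs1, Sorcs3, the antisense genes and the single markers fell outside this rule and were chosen after their values were seen. Some genes of the lists are counted but not reported here by name.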

Additional observations from a re-analysis of the deposited data

How the results depend on the processing

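Ngfr, Ntrk3 and Bdnf kept their direction and their call under every alternative in which they could be fitted (13, 12 and 13 of them). Ntrk3 fell below a minimum mean of 5 CPM and was not tested there. The log2 fold change of Ngfr ran from -8.36 to -7.08 and that of Ntrk3 from -2.75 to -2.25. Sort1 kept its direction, with a log2 fold change of 0.76 to 1.09 over the left-out libraries. It was not called without control replicate 3 (0.90, edgeR adjusted p = 0.0564). All fits with 1 library left out used fewer samples, and Sort1 stayed called in the others (edgeR adjusted p at most 0.0461). Leaving out 1 library gave 2869 to 4681 genes called against 4939, 3 to 5 of the 8 genes called against 4, 3 to 8 pathway genes higher against 9 and 4 to 8 lower against 8. The lowest of each came without control replicate 3, which left 1523 genes higher and 1346 lower. No pairing by replicate number showed in the values: deviations of same-numbered libraries from their group means correlated at -0.119, -0.0418 and 0.0355. With 3 libraries per group this cannot establish that the cultures were unpaired. A replicate block gave 3537 genes and the same number of the 8 genes, 4. With the longest transcript as length, Ntrk3 stood at 0.200 and 0.0352 RPKM, Ntf5 at 0.0439 and 0.168, Bdnf at 1.04 and 4.02 and Maged1 at 144 and 161 in control and Sox10ko. Depth limits Ntf3, Ntf5 and Ntrk2, whose levels lie near or below what 10 reads are worth.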
